A study of Homo sapiens with 6 samples.

Results

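The enzymes described here make asparagine, proline, glutamate and glutamine or move amino groups between them. They are ASNS, PYCR1, ALDH18A1, PRODH, GLUL, GPT2, GOT1 and GOT2, 8 of the 23754 features in the deposited table, and each was found by its gene symbol. In DOX+ cells ASNS transcripts fell to 63.6% of the DOX- level. None of the 6 other members tested passed edgeR's quasi-likelihood test in either direction, while DESeq2 also called PYCR1 lower. On the authors' FPKM scale, prolines encoded by collagen transcripts stood at 76.9% of the DOX- level in DOX+ cells, beside 96.7% and 107.6% for transcripts of PYCR1 and ALDH18A1, which make proline. By edgeR's fit to the counts, these enzymes were at 90.1% and 104.9%. PRODH, which breaks proline down, was at or near 0 counts in every library and was not tested.

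RNA came from IMR-90 cells, a line of human fetal lung fibroblasts, that carried a doxycycline-inducible Tet-pLKO-puro lentiviral hairpin (sh-2) against ZNF469, a zinc finger gene, and were kept under puromycin. DOX+ cells (3 libraries) received doxycycline at 2 µg/mL for several days and DOX- cells (3 libraries) received none, in Eagle's medium with serum and GlutaMAX, a stable source of glutamine. The comparison asks how ZNF469 depletion changes transcript levels in lung fibroblasts. The series describes the libraries as technical replicates, so p-values measure the spread between libraries and may hold no variation between cultures.

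The labels give the genotype of the DOX- cells as wild-type, whereas the extraction notes and the study's methods describe the same knockdown line without induction. Doxycycline and the hairpin cannot be told apart in these libraries, and 1 line with 1 hairpin was sequenced. The libraries held 34057675 to 36120260 counts. Of the 23754 features, 13991 had enough counts to be tested. DOX+ replicate 2 stood apart from the others on the first principal component, which held 23.9% of the variance. ZNF469 itself fell to 67.5% of its DOX- level (log2 fold change -0.57, adjusted p = 3.31e-05 in edgeR's quasi-likelihood test). All 7 fibroblast markers examined were detected, with a summed level of 20927 to 21246 CPM (read counts scaled to library size by TMM) in DOX- and 17540 to 17975 CPM in DOX+ libraries, a sum that includes COL1A2. SFTPC and NKX2-1 (epithelial), PECAM1 and CDH5 (endothelial), LYZ, CD3E and MS4A1 (immune), ALB (hepatocyte) and AQP4 (astrocyte) were at 0 counts in every library. The summed epithelial list, almost all KRT18 and KRT8, stood at 107 to 116 CPM in DOX- and 110 to 132 CPM in DOX+ libraries, and the immune list, almost all CD68, at 60.5 to 66.7 and 59.0 to 65.1 CPM. The endothelial list summed to 0.617 to 0.966 CPM and the hepatocyte and astrocyte list to at most 0.621 CPM in any library.

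Proline and glutamate share one carbon skeleton. ALDH18A1 turns glutamate into an intermediate that PYCR1 reduces to proline in mitochondria, and PRODH starts the way back. ASNS makes asparagine from aspartate with glutamine as the nitrogen donor, GLUL makes glutamine, and GPT2, GOT1 and GOT2 exchange amino groups between glutamate and alanine or aspartate. Fibroblasts that secrete collagen use much proline, because the repeats of the collagen triple helix are rich in it. ASNS and several of these enzymes are known targets of ATF4, a transcription factor induced when amino acids run short.

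Levels are compared between genes per transcript length. Mean FPKM (fragments per kilobase, scaled to depth, as deposited) was 46.5 for PYCR1, 41.1 for ASNS, 35.6 for GOT2, 27.6 for ALDH18A1, 24.3 for GLUL, 13.9 for GOT1 and 6.51 for GPT2 in DOX- cells, and PRODH was listed at 0. By mean FPKM over all 6 libraries, PYCR1 stood at percentile 90.2 of all features tested and GPT2 at percentile 50.5. The FPKM ranges of all neighbours in this order were apart in DOX- cells, the closest pair being PYCR1, with a lowest library of 43.97, and ASNS, with a highest library of 42.5. In DOX+ cells the mean FPKM of ASNS was 26.6, below the 36.9 of GOT2 and the 29.7 of ALDH18A1, so that ASNS moved from the second to the fourth place.

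**Figure D1:**
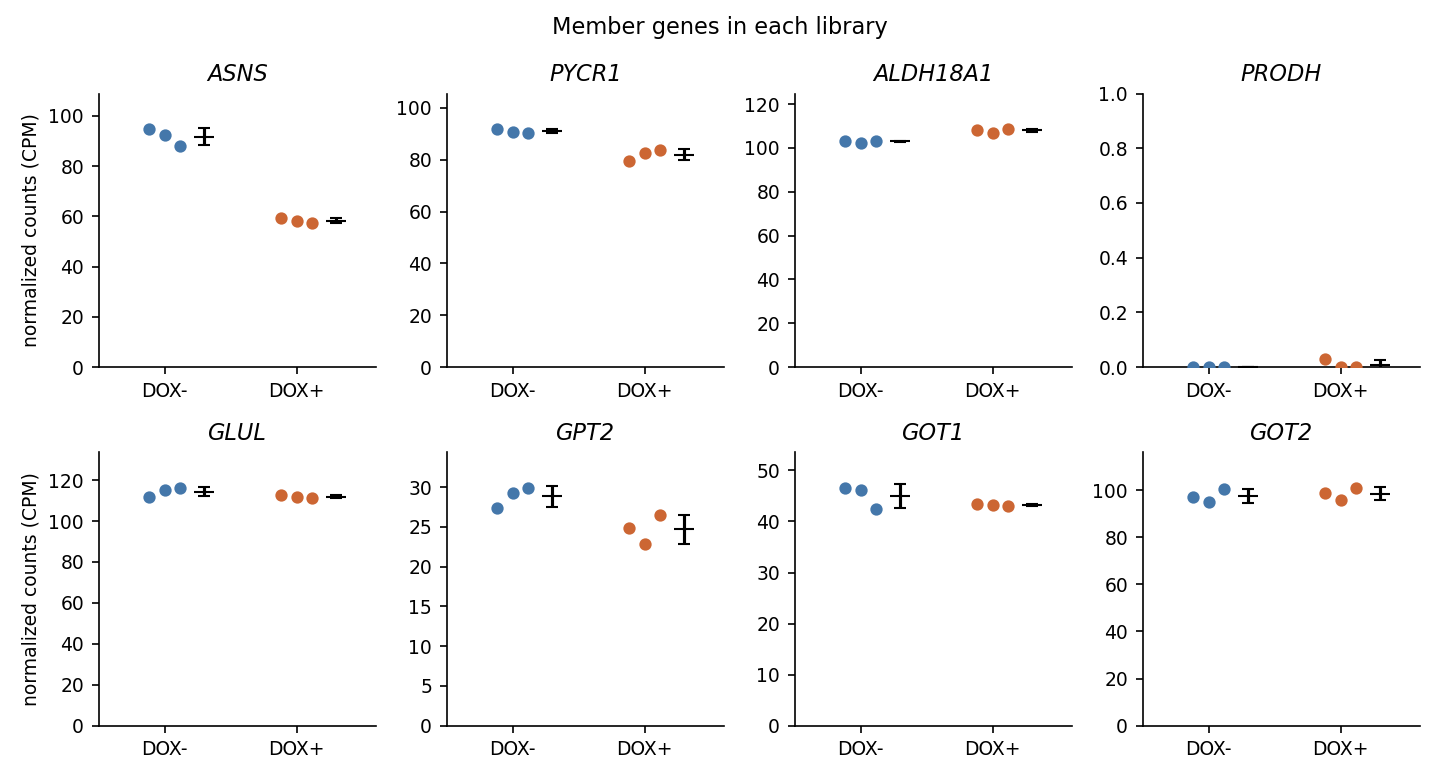
Level of each member in TMM-scaled CPM, with 1 point per library and the mean and SD of the 3 libraries as a bar beside them, for DOX- (blue) and DOX+ (orange) cells, each panel with its own axis from 0. ASNS shows the widest gap between groups, with DOX- libraries at 88.1 to 94.7 CPM and DOX+ libraries at 57.6 to 59.3 CPM, while GLUL, GOT1 and GOT2 overlap.

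ASNS (ENSG00000070669), asparagine synthetase, lies on the minus strand of chromosome 7 of GRCh38 from 97851677 to 97872542. Its level was 94.7, 92.4 and 88.1 CPM in DOX- replicates 1, 2 and 3 and 59.3, 58.1 and 57.6 CPM in DOX+ replicates 1, 2 and 3. All 3 DOX+ libraries were lower than all 3 DOX- libraries, and the gap between the groups was far wider than the spread within either. The mean was 91.7 ± 3.37 CPM (SD, n = 3) in DOX- and 58.3 ± 0.894 CPM (SD, n = 3) in DOX+ cells. On the log2 scale the change was -0.65, with a standard error of 0.0434 and a 95% interval of -0.75 to -0.56 (adjusted p = 4.1e-06 in edgeR's quasi-likelihood test, adjusted by Benjamini-Hochberg over the 13991 features). By p-value ASNS was at rank 5 of all features tested. The value rested on 3072 to 3249 reads per DOX- library and 2060 to 2116 per DOX+ library, and without DOX+ replicate 2 the log2 fold change was again -0.65. In bulk RNA, fewer cells of a type and less RNA per cell cannot be told apart.

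ASNS was the member called lower at an adjusted p under 0.05, 1 of 7 tested, against 0.715 percent of all features tested that were called lower and 1.12 percent called in either direction. No member was called higher by edgeR, by limma-voom or by DESeq2, against 0.4 percent of all features tested that edgeR called higher. At an unadjusted p under 0.05 in edgeR, 3 members were lower (ASNS, PYCR1 and GPT2) and 0 higher, against 7.69 and 7.31 percent of all features tested. DESeq2 called ASNS and PYCR1 lower, 2 of 7, against 3.3 percent of the features to which it gave an adjusted p. Groups did not overlap for ASNS, PYCR1 and GPT2 (lower in DOX+, against 10.6 percent of all features tested) and for ALDH18A1 (higher in DOX+, against 9.73 percent), which makes 4 of 7 against 20.3 percent in either direction. The median log2 fold change of the 7 tested members was -0.06 and that of all features tested was -0.0019.

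**Figure D2:**
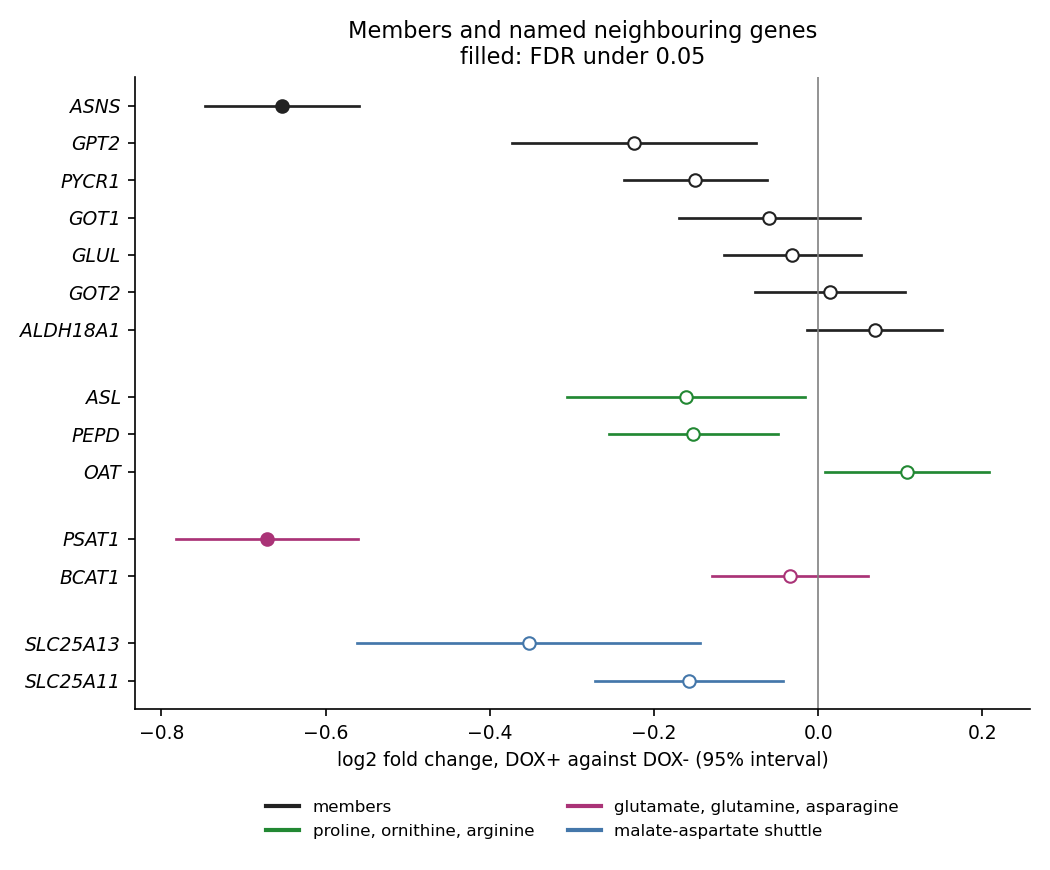
Log2 fold change (DOX+ against DOX-) with its 95% interval for the 7 tested members and 7 genes around them that the text names, coloured by list and filled at an adjusted p under 0.05, from edgeR's quasi-likelihood test. ASNS, with an interval of -0.75 to -0.56, and PSAT1 are filled, and the intervals of GLUL, GOT1, GOT2 and ALDH18A1 include 0. The genes around the members were picked by their values, here or in another setting, from 21 tested. The rest of the 21 are not drawn, so the panel does not show the lists as a whole.

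The promoter of ASNS is known for an element to which ATF4 binds, and the letters of the C/EBP-ATF response element, TGATGNAA, were searched on both strands of RefSeq promoter windows (GRCh38.p14, 250 bases before to 50 after a start). There were 7 windows for 5 members (ASNS, ALDH18A1, GLUL, GOT1 and GOT2), and 2 of them held a match, 1 of the 2 windows of ASNS and the window of GOT1. Of all 35116 windows, 3.62% held one. Both sites are shown because they set the called member beside an uncalled one, 5′ to 3′ on the strand of the gene with 11 bases on each side and the matched letters in capitals. The site of ASNS, at chr7:97872458-97872487 on the minus strand, has its match from base 68 to base 61 before the RefSeq start. This lies inside the span of the ASNS gene in GENCODE 44. The site of GOT1, at chr10:99430804-99430833 on the minus strand, has its match on the other strand, from base 198 to base 191 before the start and outside the gene.
ASNS: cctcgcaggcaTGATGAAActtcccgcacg
GOT1: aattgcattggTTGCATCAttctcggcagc
A match is a run of letters only, and binding to either site was not measured here.

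ALDH18A1 (ENSG00000059573; chromosome 10, 95605941 to 95656711, minus strand) makes the first committed intermediate of proline from glutamate. It stood at 103, 102 and 103 CPM in DOX- libraries and at 108, 107 and 109 CPM in DOX+ libraries. The DOX+ libraries were all slightly higher, with no overlap. The means were 103 ± 0.416 and 108 ± 0.881 CPM (SD, n = 3 each), and the log2 fold change was 0.07 (95% interval -0.01 to 0.15), with an adjusted p of 0.425 in edgeR's quasi-likelihood test. ALDH18A1 did not pass the test, and the lower end of its interval was close to no change.

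PYCR1 (ENSG00000183010; chromosome 17, 81932384 to 81942412, minus strand) carries out the last step to proline. Its level was 91.8, 90.7 and 90.3 CPM in DOX- and 79.6, 82.6 and 83.6 CPM in DOX+ replicates 1, 2 and 3. All DOX+ libraries lay below all DOX- libraries. The log2 fold change was -0.15 (standard error 0.0403, 95% interval -0.24 to -0.06), and the adjusted p of edgeR's quasi-likelihood test was 0.105, which did not pass 0.05. With DESeq2 it passed, at -0.15 with an adjusted p of 0.0273. In the authors' FPKM the libraries overlapped, with 48.7, 46.8 and 43.97 in DOX- and 43.9, 43.6 and 47.4 in DOX+ cells. On that scale limma gave a log2 difference of -0.05 (FPKM plus 1, adjusted p = 0.72). The transcript has a GC content of 63.1%, and with a GC trend removed from each library the edgeR log2 fold change was -0.08 (adjusted p = 0.424).

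The first and last enzymes were also compared within each library. The log2 ratio of PYCR1 to ALDH18A1 counts was lower by 0.22 in DOX+ cells (exact two-sided permutation test, p = 0.1, the smallest p that 3 libraries against 3 can give), a ratio examined after the values were seen. Because PYCR1 lay lower and ALDH18A1 higher without overlap in these counts, the separation of this ratio was fixed beforehand. PRODH (ENSG00000100033; chromosome 22, 18912777 to 18936553, minus strand) had 0 counts in all 3 DOX- libraries and 1, 0 and 0 counts in DOX+ replicates 1, 2 and 3. Both groups were under the floor of 3 counts, which is 0.0831 to 0.0881 CPM in these libraries, so PRODH was not tested and no fold is given.

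Proline demand was read from the same libraries by multiplying the FPKM of each gene by the number of prolines its coding sequence encodes. COL1A1 encodes 278 prolines in 1464 residues (19.0%) and COL1A2 232 in 1366 (16.98%), whereas the median coding gene encodes 5.52% proline. Collagen genes carried 13.8% to 14.2% of all encoded prolines in DOX- libraries and 10.9% to 11.03% in DOX+ libraries. Relative to the DOX- mean, collagen-encoded prolines stood at 101%, 98.3% and 100.3% in DOX- libraries and at 76.6%, 76.9% and 77.1% in DOX+ libraries. The DOX+ mean was 76.9%, and groups did not overlap (exact permutation p = 0.1). The share of COL1A1 in collagen-encoded prolines was 38.8% in DOX- and 32.0% in DOX+ cells, and that of COL1A2 was 26.1% and 25.1%. Of 29 collagen genes tested, edgeR called 9 lower and 0 higher, against 0.715 and 0.4 percent of all features tested. DESeq2 called 10 lower and 0 higher, against 3.3 and 3.32 percent, and at an unadjusted p under 0.05 edgeR had 14 lower and 0 higher, against 7.69 and 7.31 percent.

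The synthesis enzymes were set against this sum within each library. On the same FPKM scale, PYCR1 in DOX+ cells was at 96.7% of its DOX- mean and ALDH18A1 at 107.6%. That scale lay slightly higher in DOX+ cells. The median log2 fold change of all features tested was 0.0219 with limma on FPKM plus 1, against -0.0019 in edgeR. The ratio of PYCR1 FPKM to collagen-encoded prolines was 25.9% higher in DOX+ than in DOX- cells (log2 difference 0.33, exact permutation p = 0.1). For ALDH18A1 the log2 difference of the ratio was 0.49 (exact permutation p = 0.1). In both ratios all 3 DOX+ libraries lay above all 3 DOX- libraries. Because collagen-encoded prolines fell without overlap, a transcript of unchanged FPKM would also show a higher ratio without overlap. The ratios therefore restate the fall of collagen transcripts and are no separate result on the enzymes. Relative to such a transcript, the ALDH18A1 ratio was higher and the PYCR1 ratio slightly lower, but the FPKM of PYCR1 overlapped between groups. Without COL1A1 and COL1A2 the log2 difference of the ratio was 0.04 for PYCR1 (exact permutation p = 0.6) and 0.20 for ALDH18A1 (p = 0.1), so the PYCR1 difference rested on these 2 genes. Genes of prolyl hydroxylases, which modify proline in collagen chains, and of their partner subunits were read beside them. Of 8 tested, edgeR called 0 lower and 0 higher, against 0.715 and 0.4 percent of all features tested. At an unadjusted p under 0.05 edgeR had 0 lower and 2 higher, against 7.69 and 7.31 percent. DESeq2 called 0 lower and 2 higher (P4HA1 and P3H2), against 3.3 and 3.32 percent. The log2 fold changes in edgeR were 0.17 for P4HA1 (adjusted p = 0.068) and 0.12 for P3H2 (adjusted p = 0.088).

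**Figure D3:**
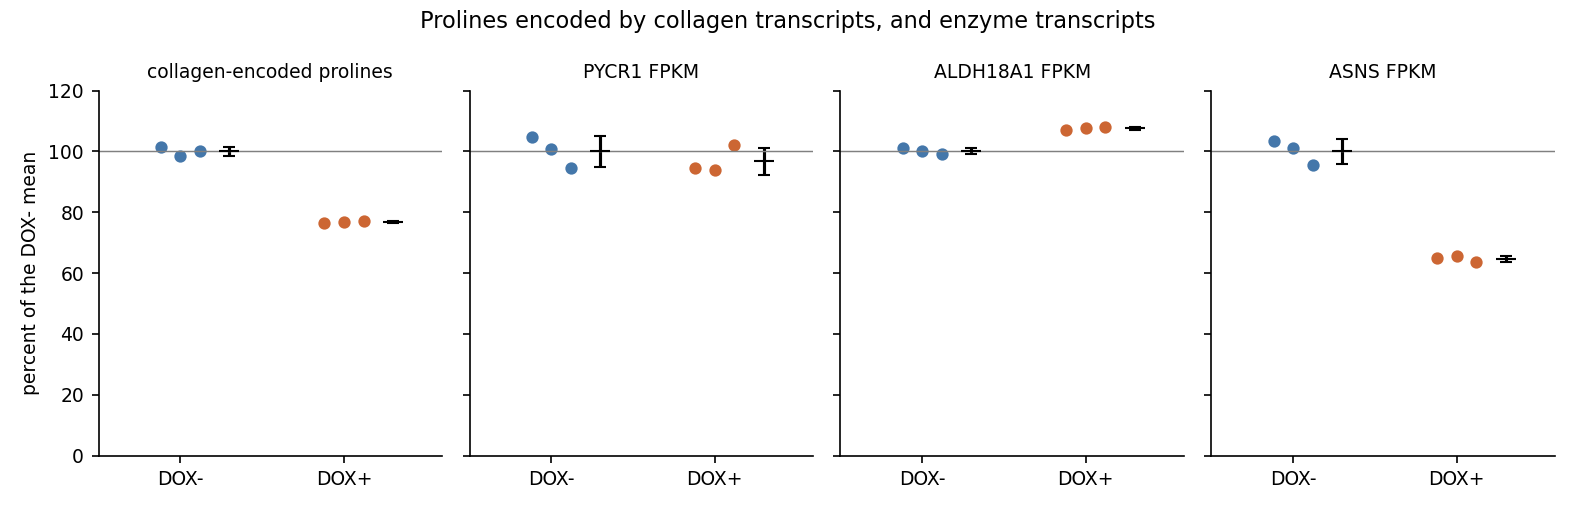
Prolines encoded by collagen transcripts and the FPKM of PYCR1, ALDH18A1 and ASNS, each as a percentage of its DOX- mean, with 1 point per library and the mean and SD as a bar. Collagen-encoded prolines sit at 76.6% to 77.1% in DOX+ libraries and ASNS at 63.7% to 65.6%, while ALDH18A1 sits at 107.1% to 108.0% and PYCR1 at 93.9% to 101.9%.

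Over all transcripts, proline made up 6.37%, 6.36% and 6.40% of encoded residues in DOX- and 6.23%, 6.22% and 6.24% in DOX+ replicates 1, 2 and 3. The groups did not overlap, and the difference between the means was -0.145 percentage points (exact permutation p = 0.1, adjusted 0.1 over 6 residues). The share of asparagine, the product of ASNS, was 3.61% ± 0.0108 in DOX- and 3.64% ± 0.0114 in DOX+ cells (SD, n = 3 each, exact permutation p = 0.1). The mean share of aspartate was 5.23% and 5.24%, of glutamate 7.27% and 7.30%, of glutamine 4.37% and 4.39% and of alanine 7.40% and 7.34% in DOX- and DOX+ cells, each again at the smallest possible exact permutation p of 0.1. With all collagen genes left out, the proline share was 5.82% in both groups (exact permutation p = 0.7), and the asparagine difference had a p of 0.2. The aspartate, glutamate and glutamine differences then had exact permutation p-values of 0.8, 0.8 and 0.5. The alanine share still differed without overlap, from 7.36% to 7.33% (exact permutation p = 0.1, adjusted 0.6 over 6 residues). These shares describe what transcripts encode, and neither free amino acids nor protein synthesis was measured.

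**Figure D4:**
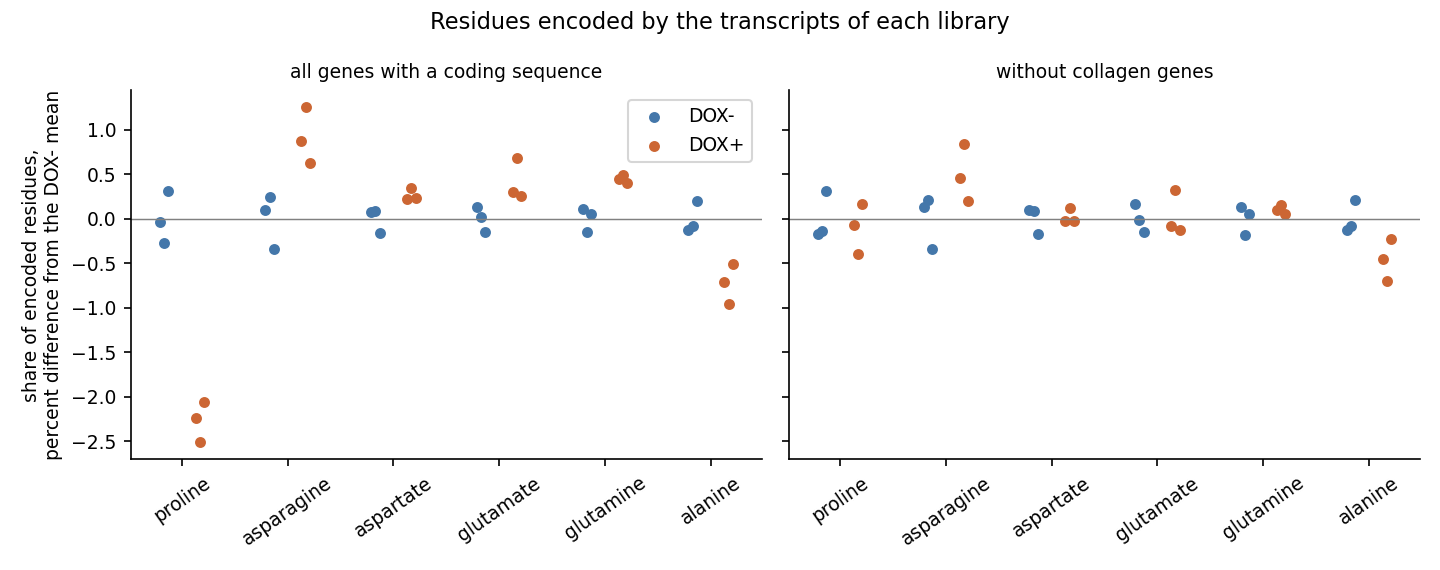
Shares of 6 residues among all residues encoded by the transcripts (FPKM times residues), as the percent difference from the DOX- mean of each, with 1 point per library, for all genes with a coding sequence and without collagen genes. With all genes the DOX+ libraries lie apart from the DOX- libraries for all 6 residues, farthest for proline. Without collagen genes the groups overlap for every residue but alanine.

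GLUL (ENSG00000135821; chromosome 1, 182378098 to 182392206, minus strand), glutamine synthetase, stood at 112, 115 and 116 CPM in DOX- and 113, 112 and 111 CPM in DOX+ libraries. The groups overlapped. Its log2 fold change was -0.03 (95% interval -0.11 to 0.05, adjusted p = 0.751 in edgeR's quasi-likelihood test), and on the FPKM scale the sign turned, at 0.01.

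GPT2 (ENSG00000166123; chromosome 16, 46884362 to 46931289, plus strand), the mitochondrial alanine aminotransferase, was the least abundant tested member. Its level was 27.4, 29.3 and 29.9 CPM in DOX- and 24.9, 22.8 and 26.5 CPM in DOX+ replicates 1, 2 and 3. The groups did not overlap, with the highest DOX+ library close to the lowest DOX- library and DOX+ replicate 2 lowest of all. The log2 fold change was -0.22 (standard error 0.0686, 95% interval -0.37 to -0.08, adjusted p = 0.148 in edgeR's quasi-likelihood test). Without DOX+ replicate 2, the library that stood apart, it was -0.17 (adjusted p = 0.384). GPT, the cytosolic form, was under the filter.

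GOT1 (ENSG00000120053; chromosome 10, 99396870 to 99430624, minus strand), the cytosolic aspartate aminotransferase, stood at 46.6, 46.2 and 42.4 CPM in DOX- and 43.4, 43.3 and 43.05 CPM in DOX+ libraries. GOT2 (ENSG00000125166; chromosome 16, 58707131 to 58734342, minus strand), the mitochondrial form, stood at 97.1, 94.95 and 100.6 CPM in DOX- and 98.8, 95.7 and 101 CPM in DOX+ libraries. Both groups overlapped for both genes. The log2 fold change of GOT1 was -0.06 (95% interval -0.17 to 0.05, adjusted p = 0.627) and that of GOT2 0.01 (95% interval -0.08 to 0.11, adjusted p = 0.918) in edgeR's quasi-likelihood test. The log2 ratio of GOT1 to GOT2 counts differed by -0.07 (exact permutation p = 0.4, in a design that cannot go below 0.1). It was -0.14 without DOX- replicate 3, -0.04 without DOX- replicate 1 and -0.03 without DOX- replicate 2.

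The ratio of ASNS to PYCR1 counts, examined after the values were seen, set the called member against its neighbour in abundance. It was lower by 0.50 on the log2 scale in DOX+ cells (exact permutation p = 0.1), with no overlap between groups, and by 0.58 on FPKM. ASNS had already been called lower in these same counts, so the ratio restates its fall and is no separate test of it.

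Around the members, 28 further genes of proline, ornithine and arginine, of glutamate, glutamine and asparagine, and of the malate-aspartate shuttle were in the table, and 21 were tested. edgeR called 1 lower and 0 higher, against 0.715 and 0.4 percent of all features tested. That gene was PSAT1, an aminotransferase of serine synthesis that uses glutamate as the amino donor. PSAT1 stood at 135, 144 and 129 CPM in DOX- and 82.8, 90.2 and 82.7 CPM in DOX+ replicates 1, 2 and 3. The groups were far apart. The change of PSAT1 was -0.67 on the log2 scale (standard error 0.0514, adjusted p = 1.9e-05 in edgeR's quasi-likelihood test). The median log2 fold change of the 21 genes was -0.06, beside -0.0019 for all features tested. DESeq2 called 1 of them lower and 0 higher, against 3.3 and 3.32 percent of the features to which it gave an adjusted p. At an unadjusted p under 0.05 edgeR had 5 lower and 1 higher (OAT), against 7.69 and 7.31 percent of all features tested. None of the 9 tested genes of proline, ornithine and arginine and none of the 5 shuttle genes passed in edgeR or DESeq2. Unadjusted, these were 2 lower and 1 higher of the 9 and 2 lower and 0 higher of the 5.

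Genes of the ATF4 axis were read apart, as a list chosen with earlier results of these data known. The counts below are therefore a description and no independent test of the list. Of 10 tested, edgeR called 4 lower and 0 higher, against 0.715 and 0.4 percent of all features tested. DESeq2 called 7 lower and 0 higher, against 3.3 and 3.32 percent. At an unadjusted p under 0.05 in edgeR, 8 were lower and 0 higher, against 7.69 and 7.31 percent. TRIB3, a pseudokinase induced by stress, had the largest fall among them, with a log2 fold change of -0.69 (adjusted p = 0.000747). DDIT4, an inhibitor of mTORC1, had -0.56 (adjusted p = 0.0026), CHAC1, which degrades glutathione, -0.29 (adjusted p = 0.0062), and CEBPB, a partner of ATF4, -0.26 (adjusted p = 0.0056), all in edgeR's quasi-likelihood test. ATF4 itself had a log2 fold change of -0.14 that did not pass in edgeR (adjusted p = 0.079) and was called lower by DESeq2, as were CEBPG and DDIT3. In the authors' FPKM the libraries of ATF4 overlapped, with 149.6, 194.2 and 183.8 in DOX- and 177.1, 170.4 and 174.1 in DOX+ cells. The median edgeR log2 fold change of the 10 genes was -0.27. Members and this list share the fit and the libraries, and ATF4 protein and its activity were not measured.

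The 5 genes whose level over the 6 libraries was most like that of ASNS, among 9448 genes compared, were SRSF4, SLC20A1, SPARC, COL5A2 and COL1A2, with Pearson's r of 0.992 to 0.997 on the log2 CPM scale. These points share 2 groups of 3 libraries, so any gene with a clear difference between groups gets a high value. SRSF4 had a log2 fold change of -0.18, SLC20A1 of -0.14, SPARC of -0.60, COL5A2 of -0.34 and COL1A2 of -0.50. SLC20A1 did not pass in edgeR's quasi-likelihood test (adjusted p = 0.085), and SRSF4 passed narrowly (adjusted p = 0.0486).

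Some members have named pseudogenes in GENCODE 44, which are 4 for ASNS, 4 for GLUL and 6 for GOT2. None of these stood in the deposited table, and how the authors' counting treated reads that match a gene and its copies is not given in the sources used here, so levels of these 3 genes are less certain than those of the others.

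**Figure D5:**
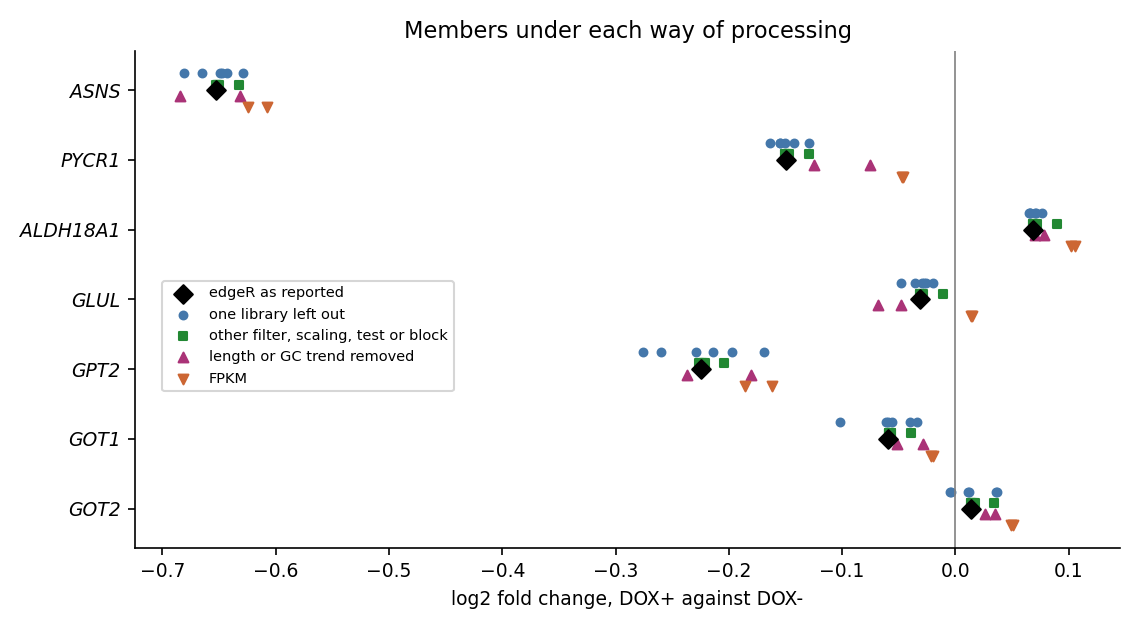
Log2 fold change (DOX+ against DOX-) of each tested member as reported (diamond) and under the other settings, with symbols for 1 library left out, another filter, scaling, test or block, a length or GC trend removed, and FPKM. ASNS lies between -0.68 and -0.61, PYCR1 between -0.16 and -0.05, and GLUL and GOT2 cross 0.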

How the data were processed

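RNA of 6 IMR-90 libraries was sequenced in pairs of 150 bp. The authors filtered reads, used HISAT2 for alignment to GRCh38 and then StringTie. The deposited counts are whole reads per feature without normalization, and the deposited FPKM values are fragments per kilobase, scaled to depth by the authors. Versions, the annotation release and the counting step are not given in the sources used here. Of 23754 features, 3780 are unannotated loci, and 17 stray lines were dropped.

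The main test was edgeR 4.0.16 in R 4.3.3: filterByExpr (minimum count 10), TMM, the quasi-likelihood test with no covariate, and p-values adjusted by Benjamini-Hochberg across 13991 features, called under 0.05. Ratios and shares were compared by exact two-sided permutation tests over libraries. Encoded residues are FPKM times the residues of the GENCODE 44 coding sequence (19763 genes), used in place of a RefSeq protein table. The likeness to ASNS is Pearson's r of log2 CPM. Alternatives were DESeq2 1.42.0, limma 3.58.1 (voom, or on log2 FPKM), other filters and scalings, length or GC trends removed, other thresholds, and each library left out. The sample titles do not say whether the same replicate number in both groups marks a pair. Correlations of same-numbered libraries, as deviations from their group means, were -0.0352 to 0.0363, which cannot settle it. A fit with a replicate block was therefore also run. Named genes are the members, ZNF469 and list genes under an adjusted p of 0.05. ATF4, CEBPG, DDIT3, P4HA1, P3H2, OAT and the genes with an unadjusted p under 0.05 were named after their values were seen. Members and lists were chosen with earlier results of these data known. Scripts were tested on simulated data. Sampling error is small at 34057675 to 36120260 counts per library, and intervals and floors cover counting and library spread only. Some planned comparisons of members with related genes are not reported here, although those genes entered every count.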

Additional observations from a re-analysis of the deposited data

How the results depend on the processing

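Of 220 alternative values for single genes and counts of calls, 205 kept their direction and side of the threshold, or stayed within 1.5 times the count. The other 67, for ratios and shares, cannot pass 0.05 and are left out of this tally; among them the PYCR1 to collagen proline difference went from 0.33 to 0.04 without COL1A1 and COL1A2. ASNS passed an adjusted p of 0.05 in all 17 settings, with log2 fold changes of -0.68 to -0.61. The number of members called lower, 1 in the main fit, was 2 with DESeq2 (ASNS and PYCR1), 3 at an unadjusted p under 0.05 (ASNS, GPT2 and PYCR1) and 0 where an absolute log2 fold change over 1 was also required. Of the other pathway genes 1 was called lower, but 2 with a GC trend removed (BCAT1 and PSAT1), 5 at an unadjusted p and 0 with the fold change requirement, and 1 (OAT) was called higher at an unadjusted p. GLUL turned from -0.03 to 0.0139 and 0.0144 with limma on FPKM plus 1 and plus 0.1. GOT2 ranged from -0.0045 to 0.0367 when each library was left out in turn, the negative values coming without DOX- replicate 2 or DOX+ replicate 3. The cause of these changes was not tested. With the replicate block, ASNS had a log2 fold change of -0.65 (adjusted p = 4.02e-05 in edgeR), and calls over all features went from 100 lower and 56 higher to 157 lower and 135 higher, while 1 member stayed lower and none was higher. Without DOX+ replicate 1 the calls over all features were 54 lower and 20 higher.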

Other observations

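Some neighbours of the members had an unadjusted p under 0.05 without passing the adjustment, and were named after their values were seen. SLC25A13, a mitochondrial carrier that exports aspartate, stood at 14.4 ± 1.14 CPM in DOX- and 11.3 ± 0.846 CPM in DOX+ cells (SD, n = 3 each), a log2 fold change of -0.35 (adjusted p = 0.111 in edgeR's quasi-likelihood test). SLC25A11, the carrier that exchanges oxoglutarate for malate, had -0.16 (adjusted p = 0.188). PEPD, which frees proline from dipeptides, had -0.15 (adjusted p = 0.160), and ASL, which makes arginine, had -0.16 (adjusted p = 0.280). OAT, which links ornithine to proline, had 0.11 (adjusted p = 0.294), and its libraries overlapped between groups.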
